A study of Mus musculus with 6 samples.

Results

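Isg15, the enzymes that attach and remove its product, and 4 further interferon-stimulated genes were followed in mouse neutrophils exposed to bacterial lipopolysaccharide (LPS) with or without resveratrol, a plant polyphenol. The 9 genes (Isg15, Uba7, Ube2l6, Herc6, Usp18, Bst2, Xaf1, Ifi44 and Ifi35) form a list of symbols chosen with earlier results of these data known. All 9 were found among the 25663 gene IDs counted and had enough reads to be tested, as did 13468 genes in all. Neutrophils positive for CD45, CD11b and Ly6G were sorted from bone marrow of C57BL/6 mice and kept for 6 hours with LPS and resveratrol (n = 3, labelled 25 μmol, an amount and not a concentration) or with LPS alone (n = 3). Every sample therefore carried LPS, no unstimulated cells enter the comparison, and the age of the mice and whether replicates came from separate animals are not stated, so the p-values speak only for the spread among these libraries, some or all of which may be technical. The study, by its title, places the comparison in liver ischemia-reperfusion injury and ERK signalling.

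ISG15 is a small ubiquitin-like protein that cells make in large amounts after interferon. It is attached to target proteins by a cascade of an activating enzyme (E1), a conjugating enzyme (E2) and a ligase (E3), and a dedicated protease removes it again. In LPS-stimulated myeloid cells, signalling from the LPS receptor leads to interferon beta, whose receptor activates transcription factors that bind interferon-stimulated response elements (ISREs) in gene promoters.

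Total counts lay between 18141352 and 19928153 per library, and levels are given as CPM, counts scaled to TMM-adjusted totals of the tested genes. LPS+resveratrol replicate 1 stood apart. Of 3268 genes that averaged 50 CPM or more, 252 differed in it by 2-fold or more from the mean of its fellow libraries, and the numbers were 34 and 41 for LPS+resveratrol replicates 2 and 3 and 3 to 4 for each LPS library. For replicates 2 and 3 that mean includes replicate 1. Their log2 CPM correlated at 0.992 with each other, and at 0.962 and 0.964 with replicate 1. S100a8, one of the most abundant neutrophil transcripts, was at 2579, 11425 and 11211 CPM in LPS+resveratrol replicates 1 to 3 and at 9615 to 10466 CPM in LPS libraries. The sum of 8 neutrophil markers was 19742 CPM in that library and up to 43302 CPM in its group, and 38190 to 40986 CPM with LPS alone, and 3 of the 8 were called higher and 0 lower over 5 libraries. Summed levels of 8 plasmacytoid dendritic cell markers, relevant because Bst2 also marks those cells, were 160.4 to 173 CPM with resveratrol and 164.5 to 178 CPM with LPS alone, with their defining gene Siglech at 9.23 to 11.8 CPM with resveratrol and 10.1 to 11.2 CPM with LPS alone. Over 5 libraries 1 of these 8 was called lower. Tcf4 (24.5 to 33.7 CPM with resveratrol) and Klk1 (0.306 to 0.492 CPM with resveratrol) lay below all LPS libraries. Their LPS levels reached 39.1 CPM for Tcf4 and 1.02 CPM for Klk1. The groups overlapped for the rest of these 8, Siglech and Runx2 included. Runx2 was at 36.3 to 59.2 CPM with resveratrol and 30.3 to 39.1 CPM with LPS alone. Sums for T and NK cells (11.01 to 12.04 CPM with resveratrol, 16.7 to 18.5 CPM with LPS alone, 3 of 7 tested markers called lower over 5 libraries) and for eosinophils and mast cells (69.0 to 105 CPM with resveratrol, 117 to 122 CPM with LPS alone, 3 of 8 lower) did not overlap. Sums for monocytes and macrophages (2569 to 2813 CPM with resveratrol, 2619 to 2666 CPM with LPS alone), for B cells (354 to 400.5 CPM with resveratrol, 375 to 406 CPM with LPS alone) and for erythroid cells (11.7 to 80.5 CPM with resveratrol, 62.3 to 76.3 CPM with LPS alone) overlapped over 6 libraries. Without LPS+resveratrol replicate 1 the B cell sums (364 and 354 CPM) lay below all LPS libraries and the monocyte and macrophage sums (2813 and 2765 CPM) above them. Over 5 libraries 3 of 8 B cell markers were called lower, 4 of 8 monocyte and macrophage markers lower and 1 higher, and 1 of 5 tested erythroid markers lower. Of all genes tested, 13.3% were called lower and 12.1% higher over 5 libraries. All resveratrol libraries lay below all LPS libraries for 15.9% of genes over 6 libraries and 24.5% over 5. The part of other cell types in the results was not tested.

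Promoter sequence was matched for 8 of the 9 genes, from 250 bases before to 50 bases after the annotated start (RefSeq, GRCm38.p6). The stretches before the start that hold an interferon-response motif are shown because interferon-activated factors bind such motifs. Capitals mark every match, on either strand, to the ISRE core (GAAA, any 2 bases, GAAA) or to the shorter element AANNGAAA bound by interferon regulatory factors. The shorter element lies inside the longer one, so each ISRE match holds a match to both.
Isg15, chr4:156200855-156200966, minus strand: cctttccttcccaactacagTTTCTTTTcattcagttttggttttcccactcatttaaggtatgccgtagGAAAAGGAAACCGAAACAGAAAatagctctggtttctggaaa
Bst2, chr8:71537567-71537649, minus strand: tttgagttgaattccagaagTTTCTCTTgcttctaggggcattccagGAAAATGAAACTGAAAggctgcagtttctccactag
Uba7, chr9:107975520-107975566, plus strand: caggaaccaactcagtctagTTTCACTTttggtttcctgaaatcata
Xaf1, chr11:72301592-72301628, plus strand: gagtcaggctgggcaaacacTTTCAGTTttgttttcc
Ifi44, chr3:151749911-151749985, minus strand: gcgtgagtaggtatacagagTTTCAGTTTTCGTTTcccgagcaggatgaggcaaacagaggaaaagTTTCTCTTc
The Isg15 stretch holds 3 overlapping ISRE cores that begin 78, 72 and 66 bases before the start, and the Bst2 stretch holds 2 that begin 130 and 124 bases before it. These were the only ISRE cores among the 8 promoters (2 of 8 genes), while 3.99% of 27025 genes with a promoter in the table have one. The shorter element was found in 6 of 8 (Isg15, Bst2, Uba7, Xaf1, Ifi44 and Ifi35, the last of them 14 bases after the start), against 26.7% of all genes. Herc6 and Ube2l6 had neither in this window. A match is a description of these letters and not a binding site shown in these cells.

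All 9 genes were lower with resveratrol, and the groups of 3 did not overlap for any of them, as was the case in this direction for 15.9% of all genes tested (24.5% over 5 libraries). Without LPS+resveratrol replicate 1 all 9 fell, by between 22.5% and 42.9% of the LPS mean, with Ifi44 and Isg15 at the upper end and the E2 gene Ube2l6 at the lower. In that comparison 13.3% of all genes tested were called lower and 12.1% higher, 25.4% together (edgeR, adjusted p under 0.05). Over all 6 libraries 0 of 9 passed, where 1.17% of genes were called lower and 0.668% higher, 1.83% together. All 9 had an unadjusted p under 0.05 over 6 libraries, between 0.00128 and 0.0427, as had 9.18% of genes in the lower direction (18.3% over 5). A negative log2 fold change, shared by the 9, was found for 50.5% of genes over 6 libraries and 51.1% over 5. The median log2 fold change of the 9 was −0.62 over 6 libraries and −0.49 over 5, while that of all genes tested was −0.004 and −0.0071. In bulk samples such as these, fewer cells that express a gene and less RNA per cell cannot be told apart.

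Isg15 (ENSMUSG00000035692), the modifier itself, was at 140.3, 305 and 327 CPM in LPS+resveratrol replicates 1 to 3, against 526, 570.3 and 509 CPM in LPS replicates 1 to 3. Every LPS library was above every LPS+resveratrol library, and replicate 1 of the resveratrol group was the lowest of the 6. The means were 257 ± 102 CPM with resveratrol and 535 ± 31.8 CPM with LPS alone (SD, n = 3 each). The log2 fold change was −1.06 with a standard error of 0.292 (edgeR adjusted p = 0.123), and standard errors follow ± below. Without LPS+resveratrol replicate 1, Isg15 fell by 0.77 ± 0.0575 on the log2 scale (edgeR adjusted p = 4.21e-13), to 0.59 times the LPS mean. Of all genes tested, 4.11% had a lower log2 fold change than Isg15 in that fit. A gene model with 95.2% identity over 482 of the 756 bases of the Isg15 transcript exists in GENCODE M21, so reads shared with such a copy cannot be assigned with certainty. That gene model is not among the gene IDs counted.

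Uba7, the E1 that activates ISG15, had the smallest standard error of the 9 over 6 libraries. Its levels were 176, 193 and 199 CPM in LPS+resveratrol replicates 1 to 3, against 279.8, 251 and 287 CPM in the LPS replicates. All 3 resveratrol libraries lay below the lowest LPS library, and replicate 1 was close to its group. The log2 fold change was −0.53 ± 0.105 over 6 libraries (edgeR adjusted p = 0.0599) and −0.49 ± 0.056 over 5 (edgeR adjusted p = 2.29e-08).

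Ube2l6, the E2 that passes ISG15 on, had 178, 169 and 190.5 CPM with resveratrol and 235, 249 and 212 CPM with LPS alone. The gap between the nearest libraries of the groups was smaller than the spread within the LPS group. Its log2 fold changes, −0.37 ± 0.107 over 6 libraries (edgeR adjusted p = 0.13) and −0.38 ± 0.0637 over 5 (edgeR adjusted p = 0.00017), were nearly equal, and LPS+resveratrol replicate 1 lay between its fellow libraries. Herc6, the main ISG15 ligase in mice, was at 166, 130.5 and 133 CPM with resveratrol and 186, 185 and 167 CPM with LPS alone. Here replicate 1 was the highest of the resveratrol group and came within reach of LPS replicate 3. Herc6 had a log2 fold change of −0.32 ± 0.125 over 6 libraries (edgeR adjusted p = 0.22) and fell by 0.45 ± 0.0528 without replicate 1 (edgeR adjusted p = 1.68e-08).

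Usp18 encodes the protease that removes ISG15 from proteins and also restrains signalling at the interferon receptor. It stood at 103, 173 and 159.6 CPM with resveratrol, against 235, 233 and 228 CPM with LPS alone. The LPS libraries lay within a narrow range well above the resveratrol libraries, of which replicate 1 was the lowest. Its log2 fold change was −0.68 ± 0.19 over 6 libraries (edgeR adjusted p = 0.126), and it fell by 0.49 ± 0.0502 over 5 (edgeR adjusted p = 8.54e-10).

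**Figure D1:**
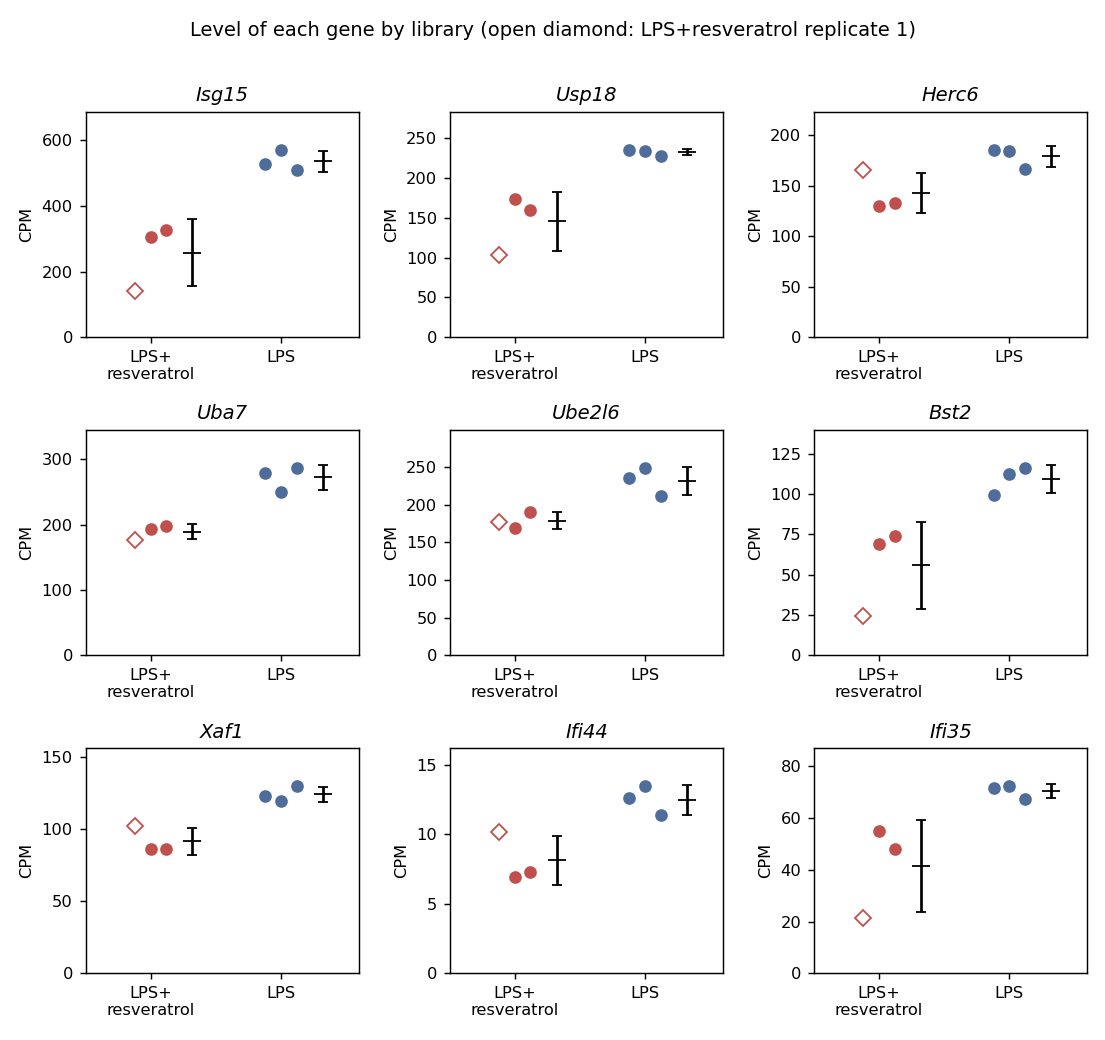
Level of each of the 9 genes in CPM (linear axis from 0) in the LPS+resveratrol and LPS libraries, with the mean and SD of each group (n = 3) beside the points. LPS+resveratrol replicate 1 (open diamond) is lowest for Isg15, at 140.3 CPM, and highest of its group for Herc6, at 166 CPM, and no panel shows overlap between the groups.

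The remaining 4 genes have roles outside conjugation. Bst2 encodes tetherin, which holds budding enveloped viruses at the cell surface. It was at 24.5, 69.0 and 73.8 CPM with resveratrol and 99.5, 113 and 116 CPM with LPS alone. Replicate 1 was at 0.343 times the mean of the other resveratrol libraries, and even the nearest of those stayed under the lowest LPS library. Bst2 had a log2 fold change of −0.97 ± 0.368 over 6 libraries (edgeR adjusted p = 0.211) and fell by 0.63 ± 0.0625 over 5 (edgeR adjusted p = 9.92e-10).

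Xaf1, whose human counterpart binds and opposes the apoptosis inhibitor XIAP, was at 102, 86.4 and 85.8 CPM with resveratrol and 123, 119 and 129.8 CPM with LPS alone. LPS+resveratrol replicates 2 and 3 were almost equal and replicate 1 lay above them, nearer to the LPS libraries. The log2 fold change was −0.44 ± 0.111 over 6 libraries (edgeR adjusted p = 0.102) and −0.53 ± 0.0556 over 5 (edgeR adjusted p = 1.26e-09). Ifi44, an interferon-induced protein of less settled function, was the least abundant member, with 129 to 250 counts per library. It was at 10.2, 6.96 and 7.29 CPM with resveratrol and 12.6, 13.5 and 11.4 CPM with LPS alone, and replicate 1 again lay nearest to the LPS group. Its fall over 5 libraries, 0.82 ± 0.131 on the log2 scale (edgeR adjusted p = 7.11e-06), had the largest standard error of the 9, and over 6 libraries the value was −0.62 ± 0.181 (edgeR adjusted p = 0.139).

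Ifi35, which forms a complex with the interferon-induced protein NMI, was at 21.3, 54.8 and 48.1 CPM with resveratrol and 71.4, 72.3 and 67.1 CPM with LPS alone. The LPS libraries were close together, while replicate 1 was at 0.415 times the mean of its fellow resveratrol libraries. Ifi35 had the largest adjusted p of the 9 over 6 libraries (log2 fold change −0.76 ± 0.311, edgeR adjusted p = 0.239), and fell by 0.46 ± 0.0704 over 5 (edgeR adjusted p = 3.11e-06). In GENCODE M21 it shares 16.8% of its exon bases with Gm11626 on the opposite strand. Gm11626 had 48 counts in all 6 libraries, and reads of the pair cannot be told apart without strand. The same holds for Usp18, which shares 4.44% of its exon bases with Gm44148 (15 counts). On the same strand Herc6 shares 13.7% with Gm45193 (0 counts, or not among the gene IDs counted) and Uba7 3.48% with Gm20661 (13 counts).

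**Figure D2:**
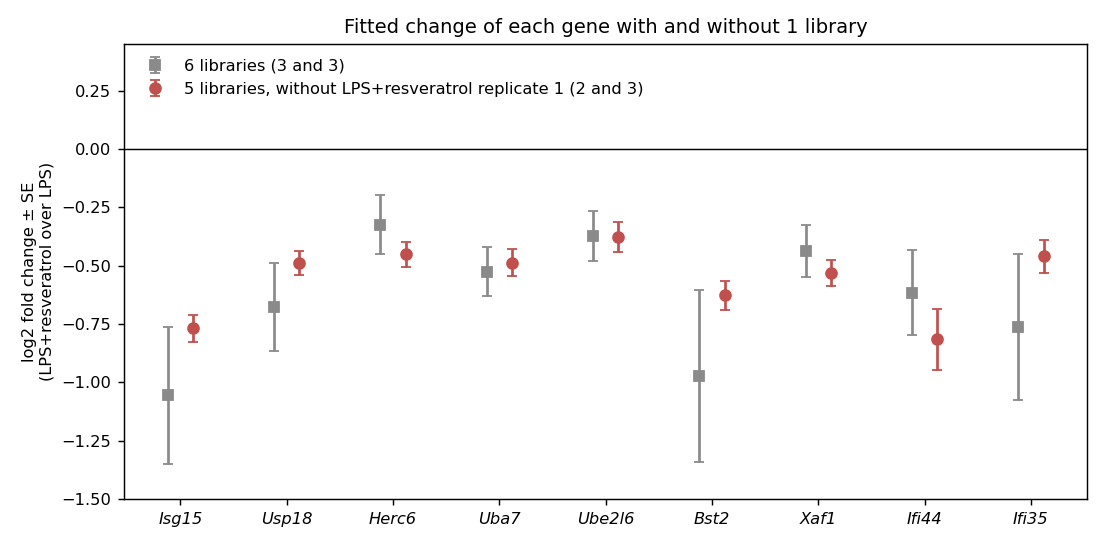
Log2 fold change of LPS+resveratrol over LPS for each gene, with its standard error, over 6 libraries (grey squares) and over 5 libraries without LPS+resveratrol replicate 1 (red circles). All values are below 0. The standard errors shrink without that library, for Bst2 to 0.0625, against 0.368 over 6 libraries.

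The members differed most from each other in LPS+resveratrol replicate 1. It was below both other resveratrol libraries for 5 genes (Isg15, Usp18, Uba7, Bst2 and Ifi35), above both for 3 (Herc6, Xaf1 and Ifi44) and between them for Ube2l6. For Isg15, Bst2 and Ifi35 it lay at least 2-fold from the mean of replicates 2 and 3, 3 of 9 members, against 7.71% of the genes at or above 50 CPM. Median transcripts of the 5 genes that were low in it had a GC content of 49.6% to 55.3%, and those of the 3 that were high had 39.4% to 48.8%. Ube2l6, with 53.6%, lay between its fellow libraries, and transcript lengths of the low genes (0.756 to 3.19 kb) and the high genes (0.672 to 4.77 kb) overlapped. With offsets for transcript length and GC content over 6 libraries, the log2 fold change of Herc6 was −0.52 (edgeR adjusted p = 0.0257) and that of Ube2l6 −0.16 (edgeR adjusted p = 0.558), and without offsets −0.32 and −0.37. The log2 fold changes of the other 7 members moved by less than 1.5 times with the offsets. Of these, Isg15, Uba7 and Ifi44 were then called (edgeR adjusted p = 0.0387, 0.0311 and 0.0243). Usp18, Bst2, Xaf1 and Ifi35 were not (edgeR adjusted p = 0.0631 to 0.308). The part of GC content in the placement of LPS+resveratrol replicate 1 was not tested.

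Over replicates 2 and 3 of the resveratrol group and the 3 LPS libraries the profiles were closer for 33 of 36 pairs, and for Herc6 and Ifi44, Isg15 and Ifi35, and Xaf1 and Ifi44 they were slightly farther apart. Usp18 and Ifi35 formed the closest pair, with a root-mean-square distance of 0.0351 between their centred log2 CPM profiles, and Isg15 and Ifi44 followed with 0.039. Over all 6 libraries those distances were 0.208 and 0.618, and the closest pair was Herc6 and Xaf1 with 0.105. These distances share their libraries and depth and are descriptions of 5 or 6 points. Leaving out a library that stands apart favours smaller distances, and pairs of other genes were not compared.

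**Figure D3:**
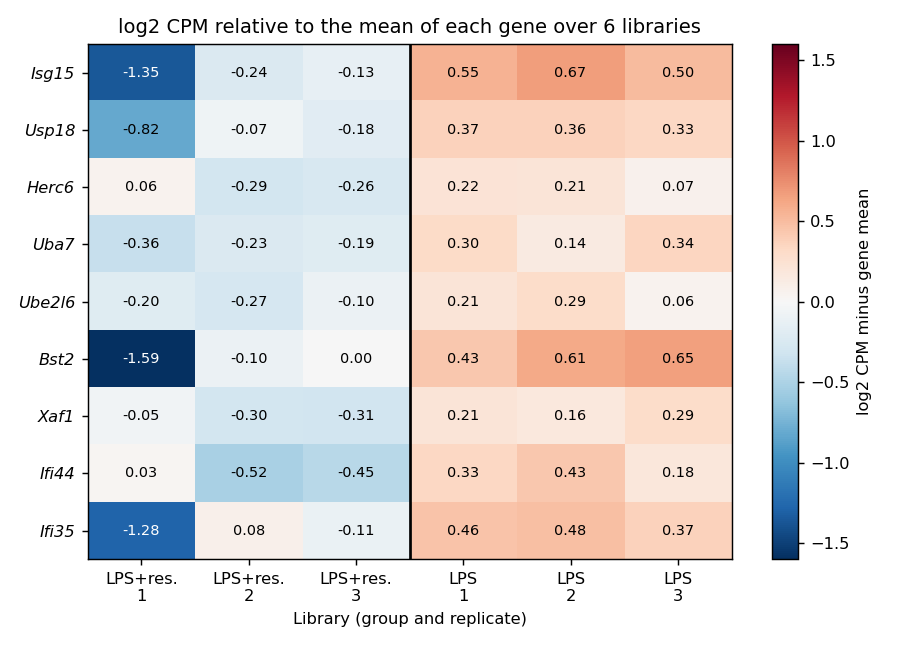
Log2 CPM of each gene minus its mean over the 6 libraries, LPS+resveratrol left and LPS right of the line, on one colour scale with the value printed in each cell. The lowest cells are those of Bst2 and Isg15 in LPS+resveratrol replicate 1, at −1.59 and −1.35, and all LPS cells are above 0.

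Levels of different genes were compared per kilobase of median transcript, as means over the 3 libraries of each group, LPS+resveratrol replicate 1 included. Isg15 had the highest level per length in both groups, 340.2 CPM per kb with resveratrol and 707.5 CPM per kb with LPS alone, followed by Ube2l6 with 188 CPM per kb with resveratrol and 244 CPM per kb with LPS alone. The ligase gene Herc6, at 30.0 CPM per kb with resveratrol and 37.6 CPM per kb with LPS alone, and the E1 gene Uba7, at 59.2 CPM per kb with resveratrol and 85.3 CPM per kb with LPS alone, were lower than Isg15, Ube2l6 and Usp18. Usp18 was at 128 CPM per kb with resveratrol and 205 CPM per kb with LPS alone. Of the 4 other genes, Xaf1 had 136 CPM per kb with resveratrol and 184 CPM per kb with LPS alone, and Bst2 had 70.4 CPM per kb with resveratrol and 138 CPM per kb with LPS alone. Ifi35 was at 30.4 CPM per kb with resveratrol and 51.6 CPM per kb with LPS alone. Its resveratrol mean was level with that of Herc6 only with LPS+resveratrol replicate 1 included. Without that library the resveratrol means were 37.8 CPM per kb for Ifi35 and 27.7 CPM per kb for Herc6. Usp18 was then at 147 CPM per kb and Xaf1 at 128 CPM per kb, the reverse of their order over 3 libraries. Ifi44 was lowest, at 2.8 CPM per kb with resveratrol and 4.29 CPM per kb with LPS alone.

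The ratio of Isg15 to each of its enzymes within a library does not depend on library scaling. Isg15 per Uba7 was 0.797, 1.58 and 1.65 in LPS+resveratrol replicates 1 to 3, against 1.88, 2.28 and 1.77 in LPS replicates 1 to 3. Isg15 per Ube2l6 was 0.79, 1.8 and 1.72 with resveratrol and 2.24, 2.29 and 2.4 with LPS alone. The Isg15 transcript was thus lower relative to those of its E1 and E2 in each resveratrol library than in any LPS library. Mean differences of the log2 ratio were −0.62 for Uba7, −0.78 for Ube2l6, −0.82 for Herc6 and −0.44 for Usp18, and −0.28, −0.39, −0.32 and −0.28 in the same order without LPS+resveratrol replicate 1. Each of the 4 had p = 0.1 in a two-sided exact permutation test of 3 against 3 libraries (0.1 also after adjustment over the 4 ratios), which is the smallest p this design allows, so none can pass 0.05.

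**Figure D4:**
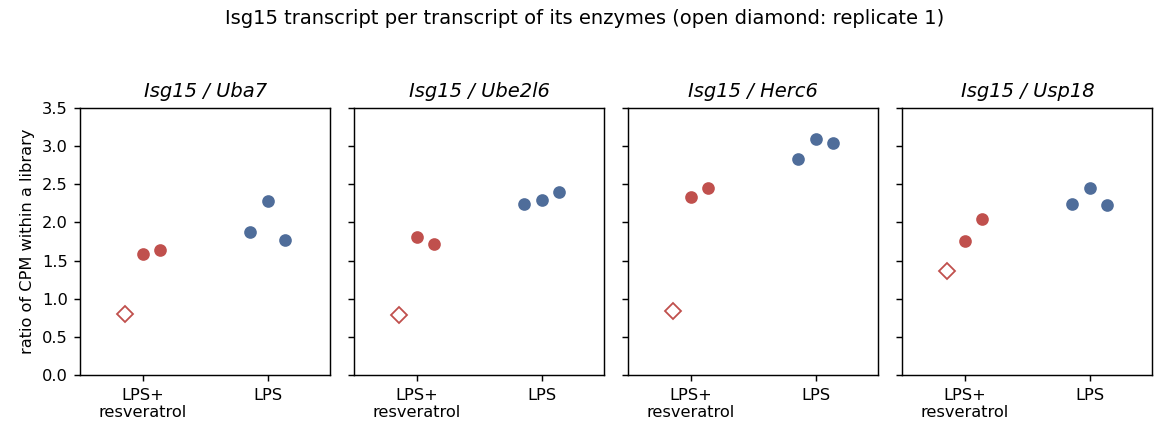
Ratio of Isg15 CPM to the CPM of each of its 4 enzymes within each library (linear axis from 0), LPS+resveratrol left and LPS right in each panel. LPS+resveratrol replicate 1 (open diamond) has the lowest ratio in every panel, 0.846 for Herc6, where LPS libraries are between 2.83 and 3.09.

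Of 10 tested genes for further ligases, proteases and receptor chains of ISG15, 0 passed over 6 libraries, and over 5 libraries 1 fell and 2 rose, near the share of all genes (13.3% of all genes fell and 12.1% rose), with a median log2 fold change of −0.04. Usp5, a ubiquitin protease that can bind ISG15, fell by 0.32 ± 0.0802 on the log2 scale (28.6 CPM in LPS+resveratrol replicates 2 and 3 on average and 35.6 CPM with LPS alone; edgeR adjusted p = 0.00207). Itgal, a chain of the LFA-1 integrin that serves as a receptor for extracellular ISG15, rose by 0.26 ± 0.0429, and Arih1, a ligase gene named after its value was seen, by 0.17. Trim25, another ISG15 ligase and also named after its value was seen, had a log2 fold change of −0.03 over 5 libraries (edgeR adjusted p = 0.703).

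The E1, E2 and HERC genes of other ubiquitin-like systems likewise gave 0 calls of 16 over 6 libraries, and 5 rose and 1 fell over 5 libraries, where 12.1% of all genes rose and 13.3% fell, with a median of 0.08. Herc2, a giant relative of Herc6, rose by 0.42 ± 0.0527 on the log2 scale over 5 libraries (edgeR adjusted p = 7.29e-08), and Nae1, a subunit of the NEDD8 E1, by 0.31 ± 0.0893. Uba1, the main ubiquitin E1 and named after its value was seen, was at 448 CPM with resveratrol and 444 CPM with LPS alone (log2 fold change 0.01 over both 6 and 5 libraries).

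Among genes of interferon signalling, 0 of 11 tested passed over 6 libraries, and 5 fell and 1 rose over 5 libraries, beside 13.3% and 12.1% of all genes, with a median of −0.13. Irf7, a factor that amplifies interferon production, was at 317, 450.1 and 460.4 CPM with resveratrol and 618, 659 and 616 CPM with LPS alone. Both LPS+resveratrol replicates 2 and 3 lay well under the LPS libraries, and Irf7 fell by 0.48 ± 0.0531 over 5 libraries (edgeR adjusted p = 4.85e-09). Irf1, a factor that binds the same response elements, fell by 0.51 ± 0.0551. Irf9, a DNA-binding factor of the interferon response and named after its value was seen, fell by 0.16, and the receptor kinase gene Tyk2, likewise named after its value was seen, rose by 0.26. The receptor genes Ifnar1 and Ifnar2, named after their values were seen, had log2 fold changes of 0.05 and −0.06 over 5 libraries (edgeR adjusted p = 0.567 and 0.529). Ifnb1, the gene of interferon beta, had 0, 6 and 9 counts in LPS+resveratrol replicates 1 to 3 and 9, 5 and 4 counts in the LPS replicates. A count of 0 allows up to 3 counts, and Ifnb1 had too few reads to be tested.

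Nmi, whose product pairs with that of Ifi35, was at 51.6, 42.8 and 47.1 CPM with resveratrol and 76.5, 77.8 and 69.4 CPM with LPS alone, with all resveratrol libraries below the LPS range. Its log2 fold change was −0.66 ± 0.114 over 6 libraries (edgeR adjusted p = 0.0397) and −0.74 ± 0.0712 over 5. The 6-library call was lost when any library other than LPS+resveratrol replicate 1 was left out (edgeR adjusted p = 0.132 to 0.255). Nmi was the 1 call over 6 libraries among the 8 tested partners and relatives of Bst2, Xaf1, Ifi44 and Ifi35. Over 5 libraries 2 of the 8 fell, Nmi and the interferon-induced Ifi27l2a (by 0.50 on the log2 scale), and 2 rose, the apoptosis inhibitor gene Birc3 by 0.22 and the death receptor gene Tnfrsf10b by 1.12, while 13.3% of all genes fell and 12.1% rose. Tnfrsf10b, named after its value was seen, was at 1.73 CPM in LPS+resveratrol replicates 2 and 3 on average and 0.787 CPM with LPS alone, a low level. Xiap, the partner of XAF1 and also named after its value was seen, had a log2 fold change of −0.06 over 5 libraries and did not pass (edgeR adjusted p = 0.416).

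Of 30 other interferon-stimulated genes, 7 were called lower and 0 higher over 6 libraries, against 1.17% and 0.668% of all genes, and 30 of 30 fell over 5 libraries, against 13.3%. Their median log2 fold change over 5 libraries was −0.46, beside −0.49 for the 9 members. The 30 genes, like the members, were listed with earlier results of these data known, so these shares only describe the list. Ifit3, which binds viral RNA with its IFIT relatives, was at 314, 280.2 and 264 CPM with resveratrol and 503, 539.5 and 479 CPM with LPS alone, and reads of the near-identical Ifit3b may be split with it. Zbp1, a sensor of Z-form nucleic acid, fell by 0.77 ± 0.108 on the log2 scale over 6 libraries, and Lgals3bp, a secreted galectin-binding glycoprotein, by 0.68 ± 0.095 (edgeR adjusted p = 0.0271 for both). No gene was called over 6 libraries with any library other than LPS+resveratrol replicate 1 left out, and the adjusted p of Ifit3, Zbp1 and Lgals3bp was then 0.0923 to 0.215 (edgeR). The median placement of LPS+resveratrol replicate 1 against its fellow libraries was 0.32 on the log2 scale for these 30 genes, −0.15 for the 9 members and 0.03 for all genes tested.

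**Figure D5:**
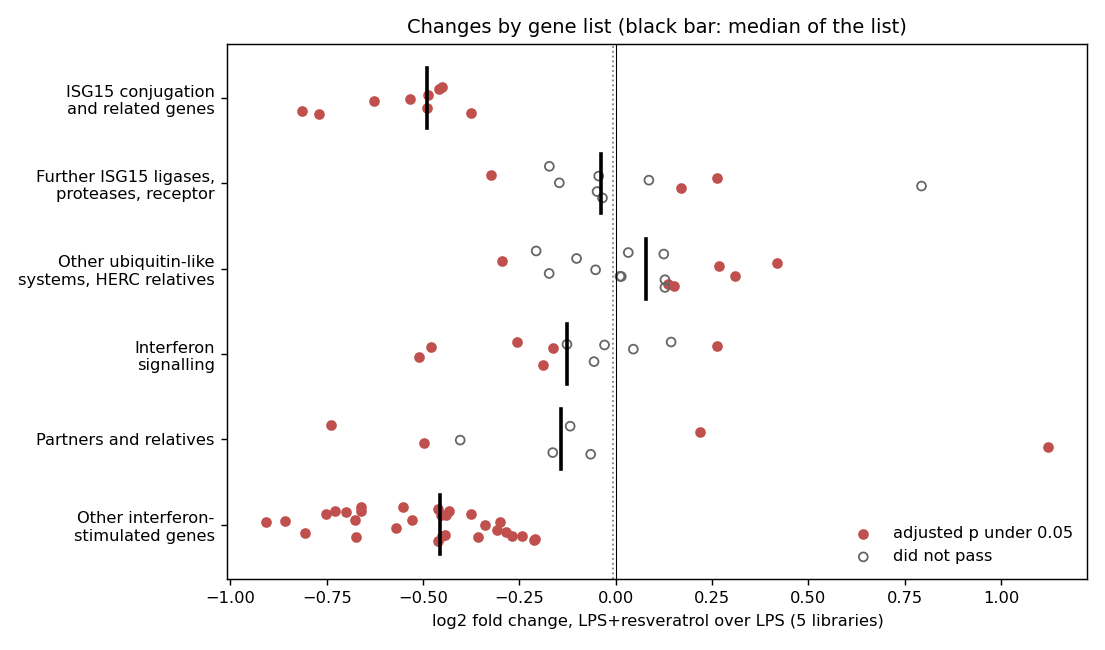
Log2 fold change of LPS+resveratrol over LPS in the 5-library comparison for each tested gene of 6 lists, 1 list per row. Filled points passed an edgeR adjusted p of 0.05, open points did not, black bars are list medians and the dotted line is the median of all genes tested. The 9 members and the 30 other interferon-stimulated genes lie wholly to the left of 0, with medians of −0.49 and −0.46.

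The 5 genes whose profile over 6 libraries was nearest to the median profile of the members were searched among 3260 other genes averaging 50 CPM or more, by root-mean-square distance of centred log2 CPM. They were Nod2, a peptidoglycan sensor (distance 0.0495), the ERK phosphatase gene Dusp6 (0.0547), the oligoadenylate synthetase relative Oas1g (0.0597), the actin-linked adaptor gene Parvg (0.0598) and the blood-cell signalling adaptor gene Hsh2d (0.0623). Nod2 was at 47.2, 49.7 and 51.5 CPM with resveratrol and 77.8, 78.2 and 75.1 CPM with LPS alone. In all 5, LPS+resveratrol replicate 1 deviated from its fellow libraries by between −0.24 and −0.07 on the log2 scale. The member median was −0.15, and the 5 genes were chosen for closeness to the median profile, so this follows from the choice. Single members ranged from −1.54 (Bst2) to 0.51 (Ifi44), with Isg15 at −1.17. Oas1g belongs to a family of similar copies, so the split of its reads is uncertain.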

How the data were processed

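Per the labels' protocols, TruSeq libraries of the 6 samples were sequenced on Illumina HiSeq. The deposited values are raw counts, unscaled, with 1 row per Ensembl ID and 1 column per library. The submitters' processing notes list Bowtie 0.12.2 and mm8. How reads were counted, with which annotation and whether by strand, is not stated in the labels or file. A symbol was found for 25595 of 25663 IDs; where IDs shared one, it went to the ID with the highest total. Low genes were removed with filterByExpr of edgeR (minimum count 10; the rest held at least 99.8% of each library's counts), and the same genes were tested over 5 libraries. Tests used TMM scaling and edgeR 4.0.16 (R 4.3.3), a robust two-sided quasi-likelihood test of group alone, with Benjamini-Hochberg adjustment over all genes tested and a threshold of 0.05. Levels were computed as CPM on TMM-scaled totals, and standard errors come from the F statistic. The procedure was tested on simulated counts in which no library stood apart, so that test does not cover the effect of LPS+resveratrol replicate 1. Lengths and GC content are medians over protein-coding transcripts in GENCODE M21. Similar copies were sought with blastn 2.17.0 and permutation tests run with scipy 1.17.1. Within groups no pair of libraries had identical counts, and their chi-square per degree of freedom was 3.29 or more.

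Members, gene lists, motifs and the comparison without LPS+resveratrol replicate 1 were chosen with earlier results of these data known. Named are all members, up to 3 genes per list with the smallest adjusted p among those passing over 6 libraries, the 2 with the smallest that pass over 5 where fewer than 2 pass over 6 (the lists being further ISG15 enzymes, other ubiquitin-like systems, interferon signalling, partners and relatives, and other interferon-stimulated genes), the 5 genes most alike, and others said to be so chosen. Alternatives were DESeq2 1.42.0, limma-voom (limma 3.58.1), other size factors, unscaled totals, other filters, a replicate block and leaving out each library. Library quality weights, length and GC offsets, and a filter applied again over 5 libraries were added after the data were seen. Values of 1 gene of the interferon signalling list are not reported here.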

Additional observations from a re-analysis of the deposited data

How the results depend on the processing

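All 9 genes kept a negative log2 fold change in all 15 alternatives over 6 libraries, and all 9 were called lower in all 15 alternatives over 5 libraries. Over 6 libraries the count of members called was 0, and it was 4 with DESeq2 (Isg15, Usp18, Uba7 and Xaf1), 1 with at least 50 counts in at least 3 samples (Uba7), 9 with library quality weights and 4 with length and GC offsets (Isg15, Herc6, Uba7 and Ifi44). Leaving out 1 library gave 0 to 9 members, 9 of them without LPS+resveratrol replicate 1 and 0 without any other library (6 to 8 at an unadjusted p under 0.05). The count of all genes called, 247 over 6 libraries (90 higher, 157 lower), was 779 with DESeq2 (366 higher, 413 lower), 392 with no filter, 2922 with quality weights (1435 higher, 1487 lower) and 531 with offsets, and 0 to 3407 when leaving out 1 library (3407 without LPS+resveratrol replicate 1). Where it was 0 with edgeR, 1577 to 2762 genes had an unadjusted p under 0.05. Over 5 libraries 3420 genes were called, and 2097 to 3300 when a further library was left out, the lowest without LPS+resveratrol replicate 3, where the lone resveratrol library is assumed to vary like the LPS group. Deviations from the group mean were almost uncorrelated between same-numbered libraries (0.0195, −0.0167 and 0.000425). In the resveratrol group these deviations are set largely by replicate 1. Its chi-square per degree of freedom was 117 and 120 against replicates 2 and 3, and 3.29 between those. In the LPS group the value was 15.2 and 14.7 for replicate 2 against replicates 1 and 3, and 3.78 between those. The correlations therefore cannot decide whether replicate numbers pair the libraries. With the replicate block 0 genes and 0 members were called over 6 libraries (2287 genes at an unadjusted p under 0.05), and 2650 genes and all 9 members over 5. Of single members over 6 libraries, quality weights moved Bst2 from −0.97 to −0.65 and Ifi35 from −0.76 to −0.48 on the log2 scale, and offsets moved Herc6 to −0.52 and Ube2l6 to −0.16. Nmi, Ifit3, Zbp1 and Lgals3bp, called over 6 libraries, lost the call under the replicate block (edgeR adjusted p = 0.115 to 0.145), and Lgals3bp also with offsets. Ifi44 rests on the fewest counts of the 9, 129 to 250 per library.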
